A study of Mus musculus with 2 samples.

Results

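The miR-23, miR-27 and miR-24 families are carried by a pair of paralogous clusters in the mouse genome, and all 6 of their genes were measured among 2202 miRNA genes. The chromosome 8 cluster holds Mir23a, Mir27a and Mir24-2, and the chromosome 13 cluster holds Mir23b, Mir27b and Mir24-1. The genes were chosen by their GENCODE M21 symbols, with their CPM levels and animal-to-animal ratios in these same libraries already known, so these values are described here and not tested. MicroRNA-seq counts short RNA, here below 30 nucleotides, from total RNA. The tissue was left cerebral cortex of 2 female mice at 2 months of age, of the hybrid strain B6CASTF1/J, with no treatment, deletion or transgene given in the labels. The strain name stands for the first generation of a cross of C57BL with CAST, a strain derived from wild mice. The mice are numbered female 03 and female 04 in the labels, which also give both the same donor identifier. After their replicate numbers, the mice are named animal 1 and animal 2. They form a single group, so no condition was compared.

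A miRNA cluster is copied into a long primary transcript, from which each hairpin is cut out and then trimmed to a short duplex. One strand of the duplex, the 5p or the 3p arm, is loaded into an Argonaute protein, and its seed, bases 2 to 8, pairs with messenger RNAs that are then repressed. The miR-23, miR-27 and miR-24 hairpins lie in the same order in both mouse clusters. Both clusters are known for expression in endothelium, where miR-23 and miR-27 promote vessel sprouting. In neurons, miR-23a, miR-24 and miR-27a are known to restrain genes of programmed cell death. miR-27 is also known as an inhibitor of fat cell differentiation, and miR-24 as an inhibitor of cell cycle genes. In human cells miR-23 represses glutaminase, which converts glutamine to glutamate.

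In the 3p arm, each family had the same seed on both chromosomes, and the copies differed by 1 base or not at all. For Mir23b this was read from the hairpin, since miR-23b-3p was not among the matched arms. RefSeq sequences on GRCm38.p6, the assembly that mm10 denotes, matched all 6 hairpins and 11 mature arms. The 3p arms are shown first because their likeness decides whether a read can be given to a single copy. Capitals mark the seed, bases 2 to 8, and sequences run 5′ to 3′.
miR-23a-3p (Mir23a): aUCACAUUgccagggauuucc
miR-27a-3p (Mir27a): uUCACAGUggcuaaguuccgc
miR-27b-3p (Mir27b): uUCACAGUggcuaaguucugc
miR-24-3p (Mir24-1 and Mir24-2): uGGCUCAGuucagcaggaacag
Counted from 1 at the 5′ end of the chromosome 8 arm, miR-27a-3p and miR-27b-3p differed by the single substitution C19U. Against the matching stretch of the Mir23b hairpin, miR-23a-3p differed by the single substitution U19A. miR-24-3p was the same 22 bases in both copies. The first 18 bases of each of these arms occurred in 2 of the 2202 measured hairpins, those of the paralogous pair. From the 5′ end, 19 bases were needed to leave a single hairpin for the miR-23a and miR-27 arms, and no length was enough for miR-24-3p.

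The hairpins were less alike outside the 3p arm. They are shown with the longest run that each shares with its paralogue in capitals.
Mir23a hairpin: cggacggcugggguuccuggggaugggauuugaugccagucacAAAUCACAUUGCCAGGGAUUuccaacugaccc
Mir23b hairpin: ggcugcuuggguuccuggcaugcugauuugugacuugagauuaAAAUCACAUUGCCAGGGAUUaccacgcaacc
Mir27a hairpin: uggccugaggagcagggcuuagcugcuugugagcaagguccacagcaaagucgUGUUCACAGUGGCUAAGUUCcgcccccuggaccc
Mir27b hairpin: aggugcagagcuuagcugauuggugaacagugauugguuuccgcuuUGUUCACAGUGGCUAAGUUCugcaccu
Mir24-2 hairpin: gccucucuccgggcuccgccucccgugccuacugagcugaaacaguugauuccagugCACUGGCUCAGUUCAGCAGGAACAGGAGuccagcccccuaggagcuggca
Mir24-1 hairpin: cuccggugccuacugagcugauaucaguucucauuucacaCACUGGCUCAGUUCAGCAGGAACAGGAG
The shared run was 20 bases in the miR-23 pair, 20 in the miR-27 pair and 28 in the miR-24 pair. In a global alignment, 59 of 80 columns were identical for miR-23 (73.8%), 58 of 95 for miR-27 (61.1%) and 60 of 110 for miR-24 (54.5%). The 5p arms separated the copies sooner, and those of miR-23 and miR-27 differed in the seed itself. The miR-24 5p arms, which share their seed, are shown because they hold the only annotated arm sequence that tells Mir24-1 from Mir24-2.
miR-24-2-5p (Mir24-2): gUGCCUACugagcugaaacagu
miR-24-1-5p (Mir24-1): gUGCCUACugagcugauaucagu
Their first difference was A17U. The 5p arms of the miR-23 and miR-27 copies each became unique among measured hairpins within 9 to 11 bases.

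Both clusters lie on the plus strand of mm10. Mir23a (ENSMUSG00000065611.1) is at chr8:84208518-84208592, Mir27a (ENSMUSG00000065444.1) at chr8:84208672-84208758 and Mir24-2 (ENSMUSG00000065541.1) at chr8:84208815-84208921. The chromosome 8 cluster spans 404 bases, with gaps of 79 and 56 bases, and lies in no annotated protein-coding gene. Its last hairpin overlaps the first 2 bases of the noncoding RNA gene Gm26532. Mir23b (ENSMUSG00000065599.2) is at chr13:63300484-63300557, Mir27b (ENSMUSG00000065475.2) at chr13:63300712-63300784 and Mir24-1 (ENSMUSG00000105904.1) at chr13:63301208-63301275. The chromosome 13 cluster spans 792 bases, with gaps of 154 and 423 bases, inside 2010111I01Rik, the gene of aminopeptidase O, on its strand. Mir23b is intronic there, while Mir27b and Mir24-1 lie wholly in annotated exons of that gene. Which of its transcripts hold these exons was not compared. Fancc, a DNA repair gene, runs over the cluster on the minus strand, with all 3 hairpins in its introns.

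The libraries held 4415759 gene counts in animal 1 and 2279562 in animal 2, from 13533476 and 10143234 reads, of which 23.4% and 47.1% were unmapped. Levels are CPM, the count on a scale of 1000000 gene counts per library. A gene with 0 counts could be present at up to 3 counts, or 0.679 CPM in animal 1 and 1.32 CPM in animal 2. All intervals are exact Clopper-Pearson 95% intervals. Intervals and floors cover counting error only, since reads amplified by PCR and not tagged by molecule are not independent. Reads that mapped to several places, held in a separate entry, came to 48.9% of mapped ones in animal 1 and 48.2% in animal 2. The sources used here do not say whether any were counted at genes. The read totals above add this entry to the gene counts, which takes its reads as counted at no gene. Counts are per hairpin and do not separate the arms. Levels of different genes are compared as counts without correction for length, because the arms have nearly the same length, 21 to 23 bases. Whether the library preparation recovered different sequences equally was not tested, so differences in level between families are differences in counts.

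All 6 genes were detected, at 2 CPM or more in both animals, against 18.8% of the 2202 genes. Together they held 3.35% of gene counts in animal 1 (3.33 to 3.36%) and 2.24% in animal 2 (2.22 to 2.26%), a mean of 2.79% ± 0.782 (SD, n = 2). The miR-23 pair made up nearly all of this, 97.0% of the counts at the 6 genes in animal 1 and 92.1% in animal 2. The miR-27 pair made up 2.66% and 7.56%, and the miR-24 pair 0.330% and 0.360%. The 2 libraries thus differed more in the counted weight of miR-27 within the clusters than in that of miR-24. The miR-24 copies have the same 3p arm, so their counts are uncertain as levels.

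**Figure D1:**
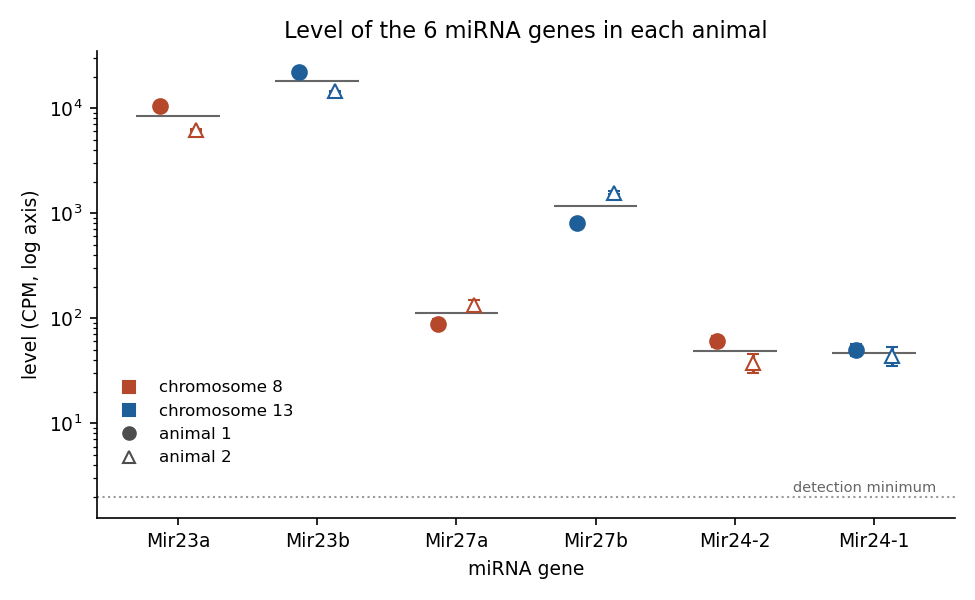
Level of each gene in CPM (log axis) in animal 1 (filled circles) and animal 2 (open triangles), with exact 95% counting intervals as bars and the mean of both animals as a line; the dotted line is the detection minimum of 2 CPM. Mir23b and Mir23a lie highest, Mir27b is next, and both miR-24 genes lie below 100 CPM.

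Mir23b, whose mature miRNA shares the seed UCACAUU with miR-23a, was the most abundant of the 6 genes. It had 97065 counts (21981 CPM) in animal 1 and 32868 counts (14419 CPM) in animal 2, a mean of 18200 ± 5348 CPM (SD, n = 2), and ranked 10 of all genes. Its chromosome 8 copy Mir23a had 46273 counts (10479 CPM) and 14148 counts (6206 CPM), a mean of 8343 ± 3021 CPM, at rank 24. The ranges of the copies over both animals did not overlap, and both copies were higher in animal 1.

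The miR-27 genes, which carry the seed UCACAGU, lay far lower and in the opposite order between animals. Mir27b had 3544 counts (803 CPM) in animal 1 and 3557 counts (1560 CPM) in animal 2, a mean of 1181 ± 536 CPM (SD, n = 2), at rank 92. Mir27a had 393 counts (89.0 CPM) and 303 counts (133 CPM), a mean of 111 ± 31.1 CPM, at rank 192. Here too the ranges of the copies did not overlap, but both copies were higher in animal 2.

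The miR-24 genes, with the seed GGCUCAG, were the lowest of both clusters. Mir24-2 had 268 counts (60.7 CPM) in animal 1 and 85 counts (37.3 CPM) in animal 2, a mean of 49.0 ± 16.5 CPM (SD, n = 2), at rank 228. Mir24-1 had 220 counts (49.8 CPM) and 99 counts (43.4 CPM), a mean of 46.6 ± 4.52 CPM, at rank 236. Their ranges overlapped, so the order of these copies is not resolved. Reads of miR-24-3p match both hairpins base for base, so the counts of Mir24-1 and Mir24-2 are uncertain as levels. If reads at several places were left out at genes, these counts miss the reads that fit both copies. To a lesser degree the uncertainty holds for the miR-23 and miR-27 copies, whose 3p arms part only at base 19.

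By mean level the order was Mir23b, Mir23a, Mir27b, Mir27a, Mir24-2 and Mir24-1. All neighbours in this order had ranges over the animals that stayed apart, except Mir24-2 and Mir24-1. Against the genes placed next to them in the whole profile, most members were level, which follows largely from picking those genes by mean level. Mir125a, at 17115 and 18564 CPM in animals 1 and 2, lay inside the range of Mir23b, while Mirlet7e at 30338 and 29884 CPM lay clear above it. Mir30d, at 8361 and 8377 CPM, lay inside the range of Mir23a, and the endothelial Mir126a, at 6662 and 9727 CPM, overlapped it. Mir212 and Mir7b lay inside the range of Mir27b, as did Mir30b and Mir210 inside that of Mir27a. Mir24-2 was level with the liver miRNA Mir122, which had 269 counts in animal 1 and 84 in animal 2. Mir24-1 was level with mmu-mir-3535, at 49.8 and 44.3 CPM, and Mir592, at 39.0 and 53.5 CPM. These likenesses are of level only, over 2 libraries.

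The chromosome 13 copy took most counts in miR-23 and miR-27 but not in miR-24. The miR-24 counts are uncertain as levels, so its split is not a like measure. Mir23b had 67.7% of the miR-23 counts in animal 1 (67.5 to 68.0%) and 69.9% in animal 2 (69.5 to 70.3%), which is 2.10-fold and 2.32-fold the count of Mir23a. On the log2(CPM + 1) scale the copies lay 1.14 ± 0.10 apart (SD, n = 2). Mir27b had 90.0% of the miR-27 counts in animal 1 (89.0 to 90.9%) and 92.2% in animal 2 (91.3 to 93.0%), which is 9.02-fold and 11.7-fold the count of Mir27a, or 3.35 ± 0.27 on the log2 scale. Within each animal the miR-27 split was thus more one-sided than the miR-23 split, beyond counting error.

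Mir24-1 had 45.1% of the miR-24 counts in animal 1 (40.6 to 49.6%) and 53.8% in animal 2 (46.3 to 61.2%). The split lay on either side of equal shares in the 2 animals, and the intervals overlapped. Reads of miR-24-3p fit both copies, so this split need not be the share of miR-24 made by each copy. The log2 difference of the chromosome 13 copy from the chromosome 8 copy was -0.03 ± 0.35 (SD, n = 2). Per base of the annotated hairpin, a choice made after the values were seen, the same difference was 0.61 ± 0.35, since the Mir24-2 hairpin is annotated at 107 bases and Mir24-1 at 68. Summed over their 3 genes, the chromosome 13 cluster had 68.2% of counts in animal 1 (68.0 to 68.5%) and 71.5% in animal 2 (71.1 to 71.9%).

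**Figure D2:**
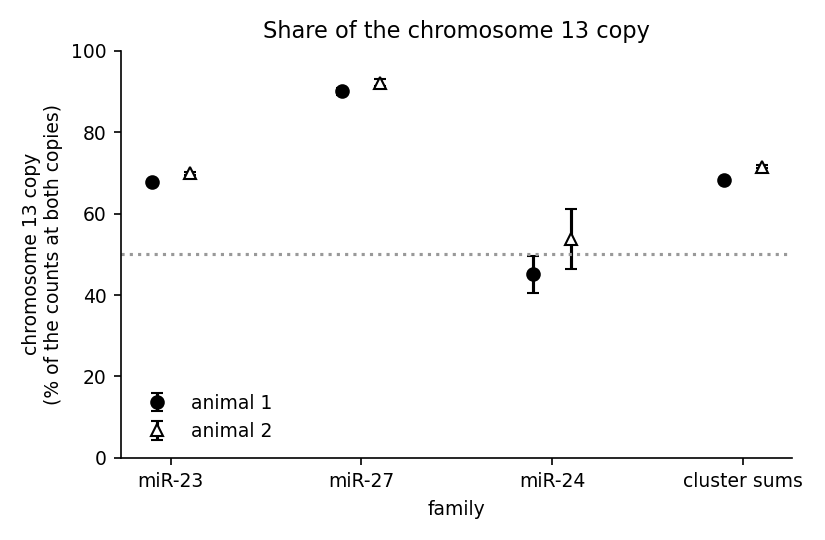
Counts at the chromosome 13 copy as a percentage of the counts at both copies, for each family and for the sums of the clusters, in animal 1 (filled circles) and animal 2 (open triangles), with exact 95% counting intervals; the dotted line marks equal shares. The miR-23 points lie at 67.7% and 69.9%, the miR-27 points at 90.0% and 92.2%, and the miR-24 points on either side of the line.

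Counted levels fell along both clusters from the first hairpin to the last. The steps down to miR-24 share the uncertainty of its counts. On chromosome 8, Mir23a had 118-fold the level of Mir27a in animal 1 and 46.7-fold in animal 2, a log2 difference of 6.20 ± 0.94 (SD, n = 2). Mir27a had 1.47-fold the level of Mir24-2 in animal 1 and 3.56-fold in animal 2, or 1.18 ± 0.89 on the log2 scale. On chromosome 13, Mir23b had 27.4-fold and 9.24-fold the level of Mir27b, or 3.99 ± 1.11 on the log2 scale. Mir27b had 16.1-fold and 35.9-fold the level of Mir24-1, or 4.56 ± 0.81. The largest step thus lay between miR-23 and miR-27 on chromosome 8 in both animals. On chromosome 13 it lay there in animal 1, and between miR-27 and miR-24 in animal 2.

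Spreads of counted level as wide as these were found in few clusters at other loci. In both clusters the lowest gene is a miR-24 gene, so the spreads share the uncertainty of its counts. Apart from these clusters, 40 groups of 2 or more detected genes lay on the same strand with gaps under 10000 bases, and their median difference between the highest and lowest gene was 3.68 on the log2 scale. In 4 of the 40 groups the difference exceeded the 7.38 of the chromosome 8 cluster, and in 2 it exceeded the 8.58 of the chromosome 13 cluster. Larger groups can span more, and among the 6 other groups of exactly 3 genes these counts were 1 and 0.

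**Figure D3:**
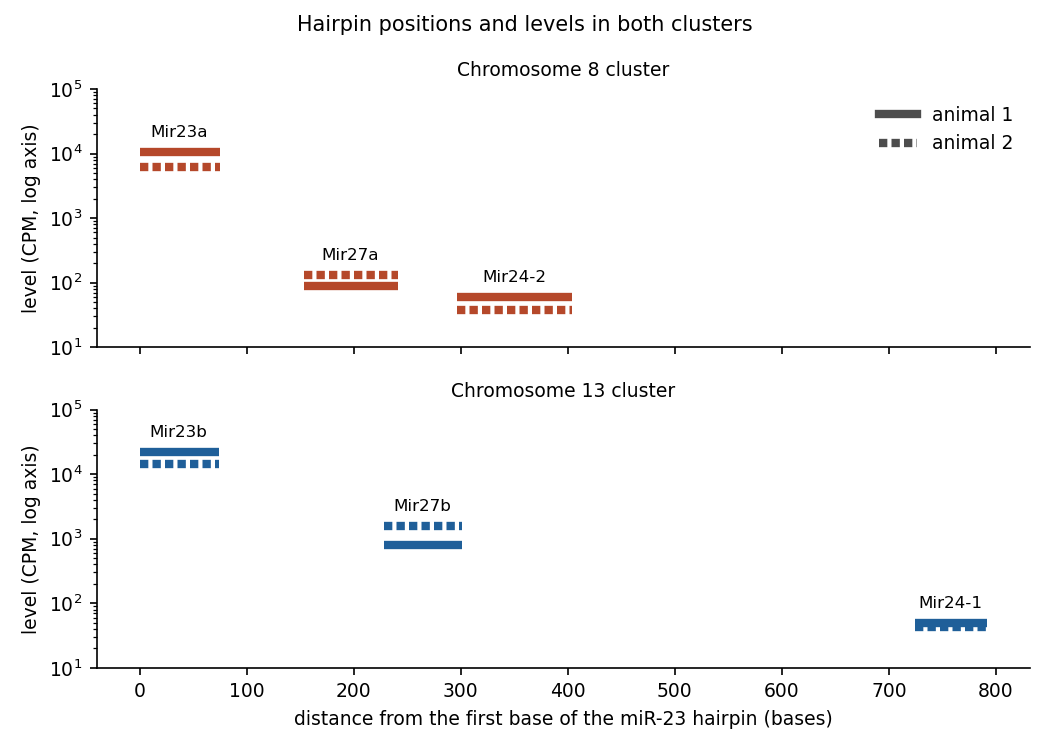
Each hairpin drawn to scale by its distance in bases from the start of the miR-23 hairpin, at the height of its level in CPM (log axis), for animal 1 (solid) and animal 2 (dashed). In both clusters miR-23 lies highest and miR-24 lowest, and miR-27 is the hairpin for which animal 2 lies above animal 1.

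Between the animals, miR-23 and miR-27 differed in opposite directions, and each of these families kept its direction on both chromosomes. Their copies need not be independent measures, since the 3p arms part only at base 19. Of the 6 genes, 5 lay outside counting error, against 56.6% of the 415 detected genes and 85.0% of those at a mean of 100 CPM or more. A gene lay outside where the exact interval of animal 1's part of its counts left out the part that the library totals give. Such a call is common in these libraries, above all for abundant genes, so the count of 5 says little about the members. Higher in animal 1 were 3 members, against 27.0% of detected genes, and higher in animal 2 were 2, against 29.6%. This compares 2 libraries, and the animal and its library preparation cannot be told apart.

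Mir23a had a log2 ratio of animal 1 to animal 2 of 0.76 (0.73 to 0.78) and Mir23b of 0.61 (0.59 to 0.63), or 1.69-fold and 1.52-fold higher in animal 1. Mir27a had a ratio of -0.57 (-0.80 to -0.36) and Mir27b of -0.96 (-1.03 to -0.89), or 1.49-fold and 1.94-fold higher in animal 2. Mir24-2 had a ratio of 0.69 (0.35 to 1.07). Mir24-1, at 0.19 (-0.15 to 0.56), was inside counting error. Among all detected genes the median ratio was -0.0029 and the median absolute ratio 0.32, against 0.40 and 0.65 over the 6 members. An absolute ratio at least as large as that of Mir27b was found in 52 of the 415 genes, and as large as that of Mir23a in 81.

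**Figure D4:**
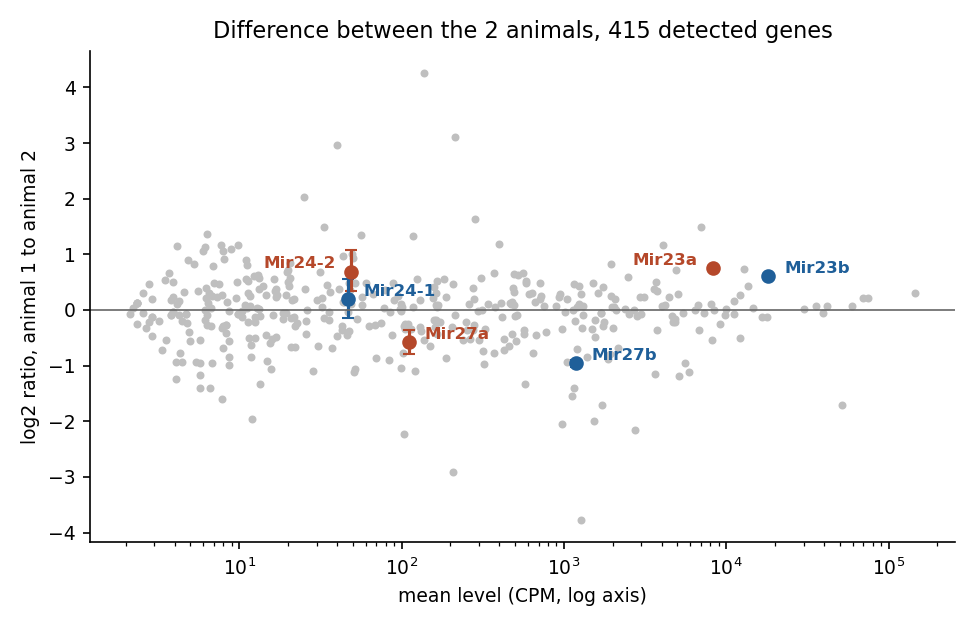
Log2 ratio of animal 1 to animal 2 against the mean level in CPM (log axis) for the 415 detected genes (grey), with the chromosome 8 members in red and the chromosome 13 members in blue and their exact 95% counting intervals. Mir23a and Mir23b lie above 0 and Mir27a and Mir27b below it, all inside the cloud of other genes.

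The relation of miR-23 to miR-27 is taken within a library and does not depend on the scaling between libraries. Mir23a over Mir27a was larger in animal 1 by 1.33 on the log2 scale, and Mir23b over Mir27b by 1.57. Mir23a over Mir24-2 was larger in animal 1 by 0.07, at 173-fold against 166-fold, and Mir23b over Mir24-1 by 0.41, at 441-fold against 332-fold. The miR-24 counts in these folds are uncertain as levels. The neighbours of a cluster went apart elsewhere too. In 10 of the 40 other groups, and 2 of the 6 other groups of 3 genes, some members lay outside counting error in one direction and some in the other. The spread of ratios was larger than that of the chromosome 8 cluster in 10 of the 40 and larger than that of the chromosome 13 cluster in 6.

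**Figure D5:**
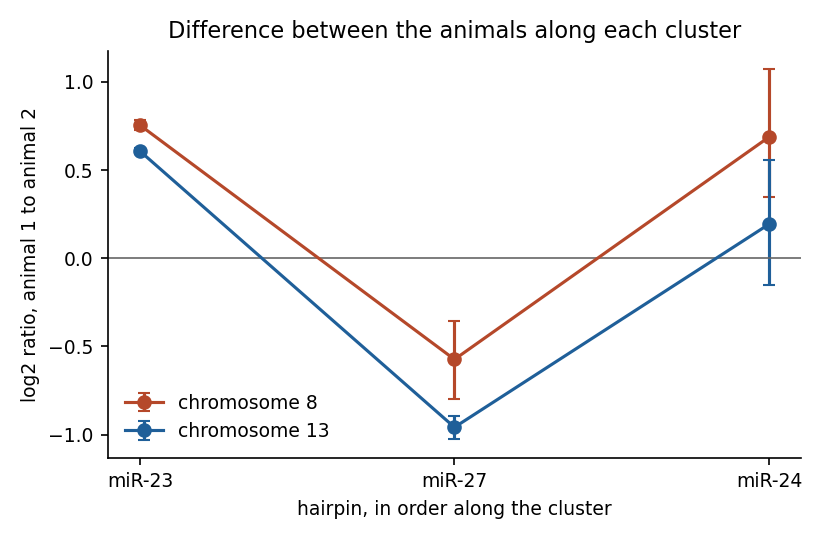
Log2 ratio of animal 1 to animal 2 for each hairpin in its order along the chromosome 8 cluster (red) and the chromosome 13 cluster (blue), with exact 95% counting intervals. Both lines go from above 0 at miR-23 to below 0 at miR-27 and back above 0 at miR-24, where the interval of the chromosome 13 copy spans 0.

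Marker miRNAs also differed between the libraries. In this bulk tissue, fewer cells of a type and less RNA per cell cannot be told apart. The 3 endothelial and vessel wall markers Mir126a, Mir143 and Mir145a were all higher in animal 2, with summed levels of 11469 and 15155 CPM in animals 1 and 2. All 4 astrocyte markers were higher in animal 2, with sums of 9367 and 14536 CPM. Of the 3 oligodendrocyte markers 2 were higher in animal 2, with sums of 1642 and 3461 CPM, and of the 3 microglia and leukocyte markers 2, with sums of 1353 and 1712 CPM. Of the 3 erythroid markers 2 were higher in animal 1, with sums of 459 and 91.2 CPM. The 7 neuron markers, 4 of them detected, summed to 49225 and 97301 CPM, with 2 higher in each animal. The sums leaving out Mir132, which was singled out after the data were seen, were 24836 and 17725 CPM, in the opposite order. Their defining member Mir124a, whose copies also share sequence, had at most 11 counts at any copy. The direction of the glial and vascular sums was that of miR-27 and opposite to that of miR-23, and their part in these differences was not tested.

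Among other measured miRNAs, miR-128, which is known largely from neurons, overlaps the seed of miR-27 and is shown for the shift of a single base between them. Capitals mark the whole seed of miR-27, its bases 2 to 8, which are bases 1 to 7 of miR-128.
miR-128-3p: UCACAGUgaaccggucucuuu
Mir128-1 had 16164 CPM in animal 1 against 9645 CPM in animal 2, and Mir128-2 had 2968 and 1971 CPM. Both were thus higher in animal 1, with log2 ratios of 0.74 (0.72 to 0.77) and 0.59 (0.54 to 0.64), opposite to both miR-27 genes. The 2 genes share the same 3p arm, so their counts are uncertain as levels too. miR-673-5p holds bases 2 to 7 of miR-27 at the same positions, and Mir673 had 572 and 777 CPM, higher in animal 2.

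No matched arm outside the clusters had the seed of miR-23 or miR-27 at its own bases 2 to 8. The seed of miR-24-3p stood at this position in Mir6413, Mir6410, Mir6369 and Mir5124b. Of these, Mir6410 had 1 count in animal 1 and 0 in animal 2, and the other 3 had 0 in both, which allows up to 0.679 and 1.32 CPM each. Mir7080 holds bases 2 to 7 of miR-24-3p in its 3p arm, and it had 183 and 226 CPM, above both miR-24 genes.

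The miR-24 hairpins are the members with a miRNA gene on the other strand. Mir3074-2 lies opposite Mir24-2 and had 0 counts on its own strand in both animals. Mir3074-1 lies opposite Mir24-1 and had 39 counts (8.83 CPM) in animal 1 and 14 counts (6.14 CPM) in animal 2, inside counting error. Without regard to strand, both miR-24 genes and both Mir3074 genes had 0 counts in the deposited tables, while the counts of Mir23a, Mir23b, Mir27a and Mir27b were the same as on the read strand. The entry for ambiguous reads held 280135 in animal 1 and 149823 in animal 2 without regard to strand, against 0 on the read strand. Whether it holds the reads of these overlapping genes was not tested, so their 0 counts there need not mean a lack of reads.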

How the data were processed

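MicroRNA-seq counts from 2 libraries, 1 per animal, were analysed as a single group taken from the source label. The authors deposited raw counts per miRNA gene, without normalization, in 3 columns: without regard to strand, on the read strand and on the opposite strand. The columns have no header, so their roles were inferred from the sums: the strand column with the larger sum was taken as the read strand and used. Build mm10 and annotation GENCODE M21 come from the metadata the authors deposited. The aligner, adapter trimming and read filters were not given in the sources used here, and whether the CAST alleles of the hybrid aligned as well as the reference was not tested.

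Summary entries that name no gene were left out of totals: unmapped reads (23.4% and 47.1% of reads in animals 1 and 2), reads at several places (37.4% and 25.5%), at no gene (6.52% and 4.91%) and ambiguous (0 on the read strand). All 2202 identifiers matched the annotation. Log values are log2(CPM + 1). Detection at 2 CPM in both libraries corresponds to 8.83 and 4.56 counts. With 1 group, no test between groups was run and no p-value computed. Nothing beyond the numbering says that the mice were handled separately, so the spread between them may be partly technical. Sequences are RefSeq's for GRCm38.p6; hairpin positions and letters were identical to GENCODE's. Pairs were aligned with Biopython 1.88, scored 1 for a match, -1 for a mismatch, -2 to open and -0.5 to extend a gap.

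Alternatives were TMM scaling (edgeR 4.0.16), DESeq2 1.42.0 size factors, a total without the most abundant gene, a pseudocount of 0.1 or 5, counts without regard to strand, leaving out each library, thinning the deeper library, and filters of 10 CPM or 1 count. The members, lists and rules were chosen with earlier results of these data known. Named genes are the members, measured genes within 10000 bases, genes sharing bases 2 to 8 of a 3p arm or, at 100 CPM or more, bases 2 to 7 within their first 8, the genes next to each member by mean level, and the marker lists. Markers not expected in cortex were also listed: Mir122 had 60.9 and 36.8 CPM, Mir206 23.6 and 16.2 CPM, Mir302a 0 and 1 counts and Mir1a-1 0 in both. Python 3.11.15, scipy 1.17.1 and R 4.3.3 were used.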

Additional observations from a re-analysis of the deposited data

Results flagged for a closer look

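Counts on the strand opposite Mir24-1, a column that none of the comparisons used, were above the 3 counts that a value of 0 allows: 39 in animal 1 and 14 in animal 2. The same numbers stand on the own strand of Mir3074-1. The strand opposite Mir24-2, where Mir3074-2 lies, had 0 in both animals.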

How the results depend on the processing

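Of 144 values recomputed under the alternatives, 139 stayed within the spread between animals (levels, shares and ratios within a library), on the same side of the counting interval (ratios between animals) or within 1.5 times (counts). Among them the miR-24 copy difference, -0.03 on the log2 scale, changed sign with the library, at -0.28 in animal 1 alone and 0.21 in animal 2 alone. Leaving out either library is among these by construction, since with 2 libraries each lies within 1 SD of their mean. Ratios between animals under another pseudocount are also among these by construction, since their calls are made on counts without a pseudocount. Without Mir139, the most abundant gene, in the total, Mir24-1 averaged 54.7 CPM in place of 46.6. With the unstranded column Mir24-2 and Mir24-1 both had 0 CPM, so ratios that include them could not be given. Per hairpin base, chosen after seeing the data, the miR-24 copies differed by 0.61 on the log2 scale in place of -0.03, since the annotated hairpins differ in length. Counting every gene with 1 count in either library gave 746 genes in place of 415. TMM scaling moved all log2 ratios by 0.02 and DESeq2 size factors by 0.01, and the split of detected genes outside counting error turned from 112 higher in animal 1 and 123 in animal 2 to 123 and 116 under TMM. No call on a member changed under these scalings. No paired analysis was possible because the libraries form a single group. Depth limits the miR-24 genes most, with 85 to 268 counts per library.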

Other observations

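Genes with an arm identical to an arm of another measured gene, as both miR-24 genes have, had, where detected, a median level near that of the other detected genes. Of 1018 genes with a RefSeq mature sequence, 92 carried such an arm, and 44 of them (47.8%) were detected, with a median of 97.2 CPM. Of the 926 others, 329 (35.5%) were detected, with a median of 98.7 CPM. The highest gene with such an arm was Mir128-1, at 12905 CPM on average, against 146459 CPM for the highest of the others, Mir139. The medians leave out genes below detection, and a gene entered the set even where its other arm is unique, as in both miR-24 genes. They therefore cannot show whether a shared arm lowers counts. This comparison was chosen after the miR-24 levels were seen, it describes counted reads only, and how reads at several places were treated was not tested.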
